A study of Homo sapiens with 6 samples.

Results

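The genes described here are 10 genes of TGF-beta and activin signaling, chosen by symbol from the 63009 genes read from the expression table. They are the ligand genes TGFB1, TGFB2, TGFB3 and INHBA, the activin antagonist FST, the receptor genes TGFBR1 and TGFBR2, the signal transducer SMAD3, the inhibitory SMAD7, and TGFBI, a secreted matrix protein named for its induction by TGF-beta. Each symbol had 1 row in the table. RNA-seq was performed on 6 cultures of ERRAS cells, which are IMR90 primary human lung fibroblasts carrying a retroviral H-RasV12 oncogene that is activated by tamoxifen through its fusion to a part of the estrogen receptor. Control mitotic cells (n = 3 libraries) were left without tamoxifen, and Ras-induced mitotic cells (n = 3 libraries) were exposed to it for 4 days, at 100 nM in the sample labels and 100 ng/ml in the methods. Both groups carried the fusion, grew in serum-containing medium with G418 at low oxygen, and were arrested with 1 μM Dimethylenastron (DME), which inhibits Eg5, the motor that pushes spindle poles apart, and the detached mitotic cells were collected. Values are FPKM, fragments mapped to a gene, divided by its transcript length and by the mapped fragments of the library, and can therefore be set side by side between genes.

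TGF-beta ligands are secreted as latent complexes, and once released they bind the type II receptor TGFBR2, which recruits and phosphorylates the type I receptor TGFBR1. TGFBR1 then phosphorylates SMAD2 and SMAD3, which enter the nucleus with SMAD4. Activin A, a dimer of the INHBA product, signals through related receptors to the same SMADs, and follistatin, the FST product, binds activin and keeps it from its receptors. In fibroblasts this pathway is known for driving matrix production and the contractile myofibroblast state.

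Of the fibroblast markers listed for the check of cell type, all 10 passed the expression filter. Their summed FPKM was between 5466 and 6317 in control and between 3639 and 5028 in Ras-induced libraries, and 4 of them (COL1A2, THY1, DCN and LUM) were altered, all lower. All 7 leukocyte markers stayed under 1 FPKM in every library, with CD3E and ITGAM listed at 0. The 8 epithelial markers summed to 86.3 to 96.0 FPKM in control and 92.1 to 99.2 FPKM in Ras-induced libraries, with none of the 6 tested altered by limma (1, KRT18, at an unadjusted p under 0.05) and CDH1 under 1 FPKM throughout. The 6 endothelial markers summed to 14.7 to 16.6 FPKM in control and 4.85 to 5.41 FPKM in Ras-induced libraries; 5 of them were under 1 FPKM, PECAM1 was listed at 0, and the 1 tested, TEK, was lower. The 10 mitotic genes listed summed to 1781 to 1839 FPKM in control libraries against 1454 to 1585 FPKM after induction, and 5 of them were altered, all lower. HRAS, whose transcripts may be cellular or made from the construct, was between 1140 and 1176 FPKM in control and between 1439 and 1847 FPKM after induction (adjusted p = 0.0431 from limma). Its adjusted p from limma was 0.0193 after quantile normalization, 0.0526 with the replicate block and 0.0925 after upper-quartile scaling. It was at most 0.166 over all alternative settings. Relative to control library 1, the steps between low values gave the other libraries a depth of 0.839 to 1.17; absolute depth is not known without read counts.

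The 10 genes spanned several orders of magnitude. In control mitotic cells TGFBI was the highest, with a mean of 878 FPKM, followed by TGFB1 at 96.9, TGFBR2 at 56.4, SMAD3 at 45.7, FST at 33.6, INHBA at 32.3, TGFBR1 at 20.0, TGFB2 at 3.46, SMAD7 at 1.18 and TGFB3 at 0.251 FPKM. Among neighbors in this order, only the ranges of FST and INHBA overlapped. In Ras-induced mitotic cells FST, at 14.7 FPKM, came below INHBA at 32.0 and TGFBR1 at 18.0, and the neighbors SMAD3 and INHBA, INHBA and TGFBR1, TGFBR1 and FST, and TGFB2 and SMAD7 had overlapping ranges.

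**Figure D1:**
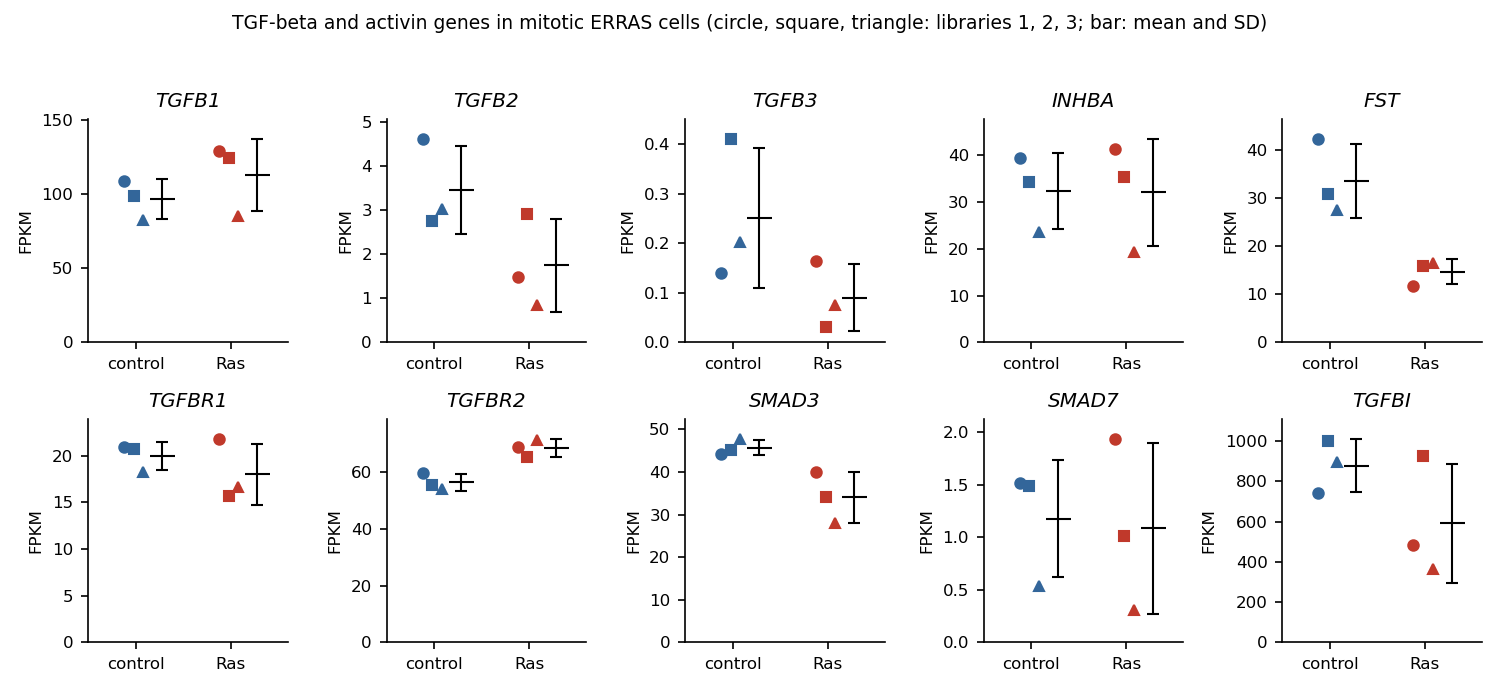
Expression of the 10 genes in FPKM (vertical axes, each from 0) in the 3 control and 3 Ras-induced mitotic libraries; circles, squares and triangles are libraries 1, 2 and 3, and bars give the mean and SD. FST and SMAD3 were lower and TGFBR2 was higher in every Ras-induced library than in every control library, whereas the groups overlapped for the other 7 genes.

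To ask which of these genes differed between Ras-induced and control mitosis, log2(FPKM + 1) was compared with limma over the 13993 genes whose mean reached 1 FPKM, and altered means a Benjamini-Hochberg adjusted p of 0.05 or less over that whole set. Of the 10 genes 9 passed the filter, TGFB3 being too low, and 1 of the 9 was altered: FST, which fell. The background for these counts was 16.7% of all tested genes altered, 11.0% as rises and 5.67% as falls. The 3 control and 3 Ras-induced values did not overlap for 3 of the 9 genes (TGFBR2, SMAD3 and FST), as for 39.9% of all tested genes. At an unadjusted p under 0.05 from limma there were 4, namely TGFB2, FST, TGFBR2 and SMAD3. The share of all tested genes at this level was not computed. Counts at it, here and for the marker and receptor lists, therefore have no background and are not read as a result. The median log2 fold change of the 9 genes was -0.15, against 0.10 over all tested genes. RNA pooled over many cells cannot tell fewer cells of a type from less RNA per cell.

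INHBA (ENSG00000122641, chromosome 7 of GRCh37, 41706766 to 41745432, minus strand) encodes the subunit of activin A. It measured 39.3, 34.2 and 23.5 FPKM in control libraries 1 to 3 and 41.3, 35.4 and 19.3 FPKM in Ras-induced libraries 1 to 3. The groups overlapped throughout, with means of 32.3 ± 8.06 and 32.0 ± 11.3 FPKM (SD, n = 3 each). Its log2 fold change was -0.05 (95% interval -0.78 to 0.68, adjusted p = 0.929 from limma), an interval that leaves room for a sizable change in either direction.

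FST (ENSG00000134363, chromosome 5 of GRCh37, 52776456 to 52782964, plus strand) measured 42.3, 30.9 and 27.6 FPKM in control libraries and 11.7, 15.8 and 16.5 FPKM in Ras-induced libraries. Every Ras-induced library lay under every control library, and the mean fell from 33.6 ± 7.70 to 14.7 ± 2.57 FPKM (SD, n = 3 each), or 2.29-fold. The log2 fold change was -1.13 (standard error, SE, 0.19, 95% interval -1.59 to -0.67, adjusted p = 0.0125 from limma). The adjusted p was 0.00866 to 0.0570 over the alternative settings, and the call was lost without control library 2 (0.0570) and without Ras-induced library 1 (0.0506), with log2 fold changes of -1.18 and -0.99. The lower sums of fibroblast and mitotic markers given above moved in the same direction, and their part in the fall of FST was not tested.

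Of the 10 other activin and inhibin ligands and antagonists listed, only FSTL3 and GDF11 passed the filter. FSTL3 (ENSG00000070404, chromosome 19 of GRCh37, 676392 to 683392, plus strand) encodes follistatin-like 3, a second secreted binder of activin. It measured 33.7, 41.9 and 24.5 FPKM in control and 6.02, 7.91 and 5.51 FPKM in Ras-induced libraries. The groups were far apart, with a 5.15-fold fall of the mean, from 33.4 ± 8.69 to 6.48 ± 1.26 FPKM (SD, n = 3 each). Its log2 fold change was -2.18 (SE 0.21, adjusted p = 0.0028 from limma), and the adjusted p was at most 0.0255 under the alternative settings. GDF11, a TGF-beta family ligand that also signals through SMAD2 and SMAD3, measured 5.36, 5.79 and 6.08 FPKM in control and 11.0, 7.21 and 9.16 FPKM in Ras-induced libraries. Its log2 fold change of 0.57 was at the edge of the threshold (adjusted p = 0.0496 from limma), and the adjusted p was 0.0983 after upper-quartile scaling and 0.0684 with the replicate block. It was over the threshold, at up to 0.153, when any 1 of the 3 control libraries or Ras-induced library 1 or 3 was left out. INHBB, another activin subunit gene, was between 0.259 and 0.508 FPKM in control and between 0 and 0.0363 FPKM in Ras-induced libraries, under the filter. With the filter at 0.1 FPKM or none, the altered genes of this list were FSTL3 and INHBB, both lower, and GDF11 was not called (0.0732 and 0.113). INHA was listed at 0 in every library.

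The ratio of INHBA to FST, the ligand subunit to its antagonist, was 0.929, 1.11 and 0.851 in control libraries and 3.51, 2.23 and 1.17 in Ras-induced libraries. All Ras-induced ratios lay above all control ratios, though that of Ras-induced library 3 was only just higher, where INHBA was lowest and FST highest of that group. The mean ratio was 0.962 ± 0.131 (SD, n = 3) in control and 2.31 ± 1.17 (SD, n = 3) in Ras-induced cells; without Ras-induced library 1 the latter was 1.70. With FSTL3 added to FST, a sum chosen after the values were seen, the ratio was 0.517, 0.470 and 0.451 in control and 2.32, 1.49 and 0.879 in Ras-induced libraries. These ratios are given as descriptions, without a test or a background of other ratios, and FST alone was already apart between the groups.

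**Figure D2:**
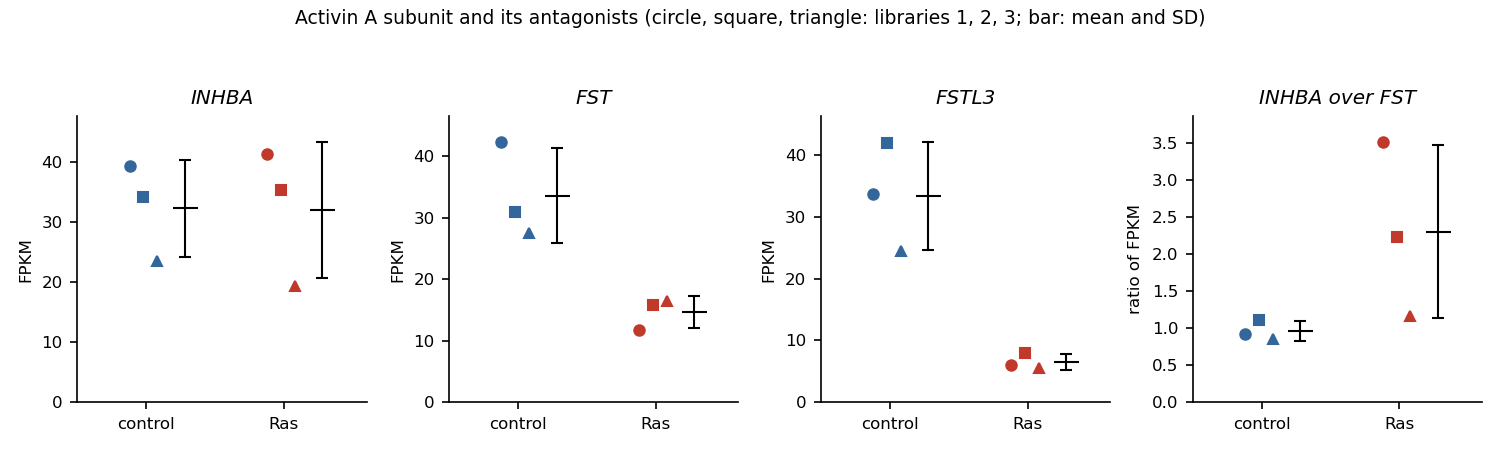
FPKM of INHBA, FST and FSTL3 and the ratio of INHBA to FST (vertical axes, each from 0) in control and Ras-induced mitotic libraries; circles, squares and triangles are libraries 1, 2 and 3, and bars give the mean and SD. INHBA overlapped between the groups, both antagonists were lower in all 3 Ras-induced libraries, and the ratio spanned 0.851 to 1.11 in control libraries and 1.17 to 3.51 after induction.

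The sequences upstream of these 3 genes are shown as a description, and their part in the fall of the antagonists was not tested. They are the 250 bases before 1 start per gene, the first listed in RefSeq on GRCh38.p14, written 5′ to 3′ on the strand of the gene. Their positions are chr7:41703091-41703340, minus strand for INHBA, chr5:53480379-53480628, plus strand for FST and chr19:676142-676391, plus strand for FSTL3. Other starts of these genes were not examined, and the gene coordinates given above are from another build and annotation. Capitals mark exact matches on either strand to the AP-1-like pattern TGANTCA, the GC box GGGCGG, the TATA element TATAAA or the SMAD palindrome GTCTAGAC. N is any base, so TGANTCA is looser than the AP-1 consensus, which has C or G there.
INHBA: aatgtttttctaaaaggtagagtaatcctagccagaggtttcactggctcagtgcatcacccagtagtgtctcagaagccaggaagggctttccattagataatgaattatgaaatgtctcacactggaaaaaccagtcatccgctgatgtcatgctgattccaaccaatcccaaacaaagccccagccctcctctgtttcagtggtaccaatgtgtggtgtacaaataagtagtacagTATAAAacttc
FST: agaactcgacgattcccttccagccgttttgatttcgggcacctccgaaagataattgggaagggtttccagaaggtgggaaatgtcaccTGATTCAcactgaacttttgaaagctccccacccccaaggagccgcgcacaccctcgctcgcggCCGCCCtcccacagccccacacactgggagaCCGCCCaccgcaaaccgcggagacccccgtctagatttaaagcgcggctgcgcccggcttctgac
FSTL3: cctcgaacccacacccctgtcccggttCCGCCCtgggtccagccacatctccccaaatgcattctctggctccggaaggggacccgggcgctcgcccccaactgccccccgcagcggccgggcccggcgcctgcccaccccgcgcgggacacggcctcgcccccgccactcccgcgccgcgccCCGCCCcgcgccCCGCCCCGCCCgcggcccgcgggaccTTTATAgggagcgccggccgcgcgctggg
FST held 1 match to the AP-1-like pattern, from 160 to 154 bases before the start, and 2 GC boxes. This match reads TGATTCA, with T in the middle, and is not a match to the AP-1 consensus. FSTL3 held 4 GC boxes, 2 of which share a base, and 1 TATA match on the reverse strand. INHBA held only 1 TATA match, from 11 to 6 bases before the start. GC boxes were also found upstream of TGFB1 (6), SMAD3 (4) and TGFBI (3), which were not altered in the deposited values. Of 35116 listed promoters of the same length, 6.57% held the AP-1-like pattern, 42.6% the GC box and 10.7% the TATA element. The SMAD palindrome was in 0.182% of them and in none of these 3 windows. Promoters with the AP-1 consensus itself were not counted. A match describes letters and not binding, and GC content was 42.8% in the INHBA window, 60.0% in that of FST and 80.0% in that of FSTL3.

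Among the TGF-beta ligands, TGFB1 was by far the most abundant. TGFB1 (ENSG00000105329, chromosome 19 of GRCh37, 41807492 to 41859827, minus strand) measured 109, 98.9 and 82.6 FPKM in control and 129, 125 and 85.0 FPKM in Ras-induced libraries. The groups overlapped because Ras-induced library 3 lay among the controls (log2 fold change 0.20, 95% interval -0.24 to 0.64, adjusted p = 0.477 from limma). The log2 fold change was 0.39 without Ras-induced library 3 and 0.09 without control library 3, and was called in neither case. Of the exonic bases of TGFB1, 6.59% are shared with HNRNPUL1 on the opposite strand, a gene with a mean of 118.5 FPKM, and the library kit does not mark strand, so a part of these reads could belong to either gene. In both groups library 3 was the lowest for TGFB1, INHBA and SMAD7.

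TGFB2 (ENSG00000092969, chromosome 1 of GRCh37, 218518678 to 218617961, plus strand) measured 4.61, 2.75 and 3.02 FPKM in control and 1.48, 2.90 and 0.851 FPKM in Ras-induced libraries. Ras-induced library 2 lay among the controls, and the other 2 lay under them. The mean was 3.46 ± 1.00 in control and 1.75 ± 1.05 FPKM in Ras-induced cells (SD, n = 3 each) (log2 fold change -0.74, 95% interval -1.48 to -0.01, adjusted p = 0.144 from limma). TGFB3 was low in every library, at 0.139, 0.410 and 0.203 FPKM in control and 0.164, 0.0312 and 0.0757 FPKM in Ras-induced libraries, and was not tested.

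As a share of the summed FPKM of the 3 ligand genes, TGFB1 made up 95.8%, 96.9% and 96.2% in control and 98.7%, 97.7% and 98.9% in Ras-induced libraries. TGFB2 made up 4.04%, 2.69% and 3.52% in control and 1.14%, 2.28% and 0.990% in Ras-induced libraries. With 1 FPKM added to each gene first, the mean share of TGFB2 was 4.29% instead of 3.42% in control cells and 2.31% instead of 1.47% after induction. The groups did not overlap in either share as deposited, for which no background was computed, and a ligand mRNA pool dominated by TGFB1 was common to both groups.

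TGFBR2 (ENSG00000163513, chromosome 3 of GRCh37, 30648093 to 30735634, plus strand) encodes the type II receptor that binds ligand. It measured 59.7, 55.4 and 54.2 FPKM in control and 69.0, 65.3 and 71.4 FPKM in Ras-induced libraries. All Ras-induced values were above all control values, as for 27.1% of all tested genes. The mean was 56.4 ± 2.90 in control and 68.6 ± 3.06 FPKM in Ras-induced cells (SD, n = 3 each), with a log2 fold change of 0.28 (95% interval 0.09 to 0.46) that missed the threshold (adjusted p = 0.0525 from limma). After upper-quartile scaling the log2 fold change was 0.17 (adjusted p = 0.175 from limma).

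TGFBR1 (ENSG00000106799, chromosome 9 of GRCh37, 101866320 to 101916474, plus strand), the type I receptor kinase, measured 21.0, 20.7 and 18.3 FPKM in control and 21.8, 15.7 and 16.6 FPKM in Ras-induced libraries. The groups overlapped (log2 fold change -0.15, 95% interval -0.48 to 0.17, adjusted p = 0.468 from limma). The ratio of TGFBR1 to TGFBR2 was 0.351, 0.373 and 0.338 in control and 0.315, 0.240 and 0.233 in Ras-induced libraries. Every Ras-induced ratio was under every control ratio, but TGFBR2 alone was already apart between the groups. How often ratios of other genes are apart was not computed. Of the 8 other receptors and co-receptors listed, 5 passed the filter and none was altered by limma, against 16.7% of all tested genes, with 1, the activin and BMP type I receptor gene ACVR1, at an unadjusted p under 0.05. ENG, the co-receptor endoglin and the highest of them, had means of 74.1 and 63.5 FPKM (log2 fold change -0.23, adjusted p = 0.185 from limma), and was called lower without Ras-induced library 2 (adjusted p = 0.0399).

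SMAD3 (ENSG00000166949, chromosome 15 of GRCh37, 67356101 to 67487511, plus strand), the transducer of both TGF-beta and activin receptors, measured 44.3, 45.1 and 47.7 FPKM in control and 40.1, 34.1 and 28.0 FPKM in Ras-induced libraries. All Ras-induced values were under all control values, as for 12.8% of all tested genes. The mean was 45.7 ± 1.76 in control and 34.0 ± 6.05 FPKM in Ras-induced cells (SD, n = 3 each). The log2 fold change of -0.43 (95% interval -0.74 to -0.11) missed the threshold in the deposited values (adjusted p = 0.0710 from limma) and passed it after quantile normalization (adjusted p = 0.0449) and after upper-quartile scaling (adjusted p = 0.0434).

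SMAD7 (ENSG00000101665, chromosome 18 of GRCh37, 46446223 to 46477335, minus strand), an inhibitor of receptor signaling that is itself induced by the pathway, was near the filter of 1 FPKM. It measured 1.51, 1.48 and 0.537 FPKM in control and 1.93, 1.02 and 0.307 FPKM in Ras-induced libraries. The spread within each group was wider than the distance between the groups (log2 fold change -0.10, 95% interval -0.96 to 0.76, adjusted p = 0.867 from limma).

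**Figure D3:**
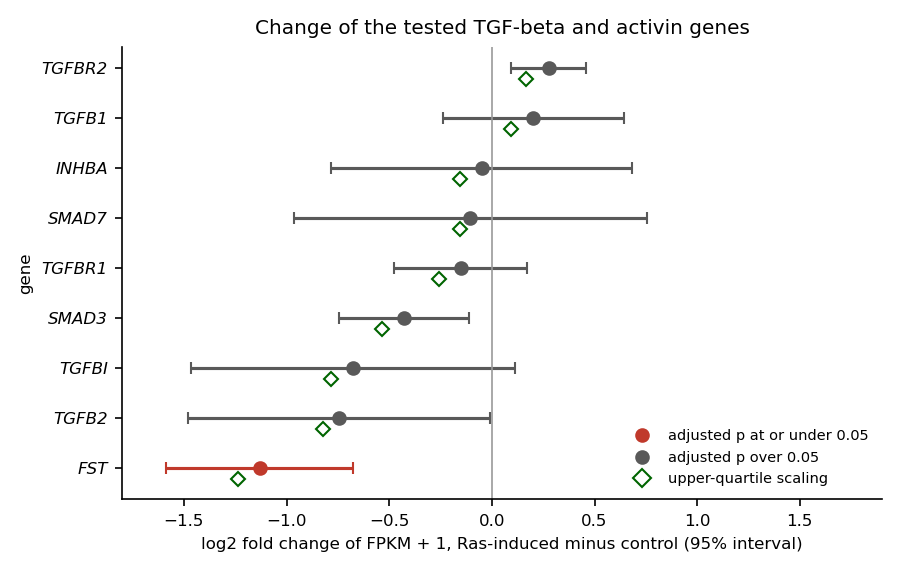
Log2 fold change of FPKM + 1, Ras-induced minus control (horizontal axis), of the 9 tested genes (vertical axis), with 95% intervals from limma; red marks an adjusted p at or under 0.05, and open diamonds give the value after upper-quartile scaling. FST alone passed the threshold in the deposited values, at -1.13, and the scaling moved every value to the left without turning its sign.

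Of 17 other SMADs and SMAD regulators, 16 were tested and 1 was altered, or 6.25% against 16.7% of all tested genes. TGIF1, a corepressor of SMAD2 and SMAD3, rose from 21.3 ± 3.24 to 29.8 ± 0.700 FPKM (SD, n = 3 each), with a log2 fold change of 0.47 (adjusted p = 0.0408 from limma). Its adjusted p was 0.0682 after quantile normalization and 0.0664 after upper-quartile scaling, where the 1 altered gene of the list was instead SMAD4, the common partner of SMAD2 and SMAD3, which was lower (0.0419 and 0.0421, and 0.155 in the deposited values). It was also over the threshold without control library 2 (0.109) and without Ras-induced library 1 (0.117), 2 (0.0916) or 3 (0.125). STRAP, an adaptor that associates with TGF-beta receptors and SMAD7 and the highest of the list, had means of 145 and 144 FPKM. The median log2 fold change of the 16 genes was 0.04, against 0.10 over all tested genes.

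Of 15 genes of TGF-beta latency and activation, 11 were tested and 3 were altered, or 27.3% against 16.7% of all tested genes. FURIN, the protease that cleaves TGF-beta precursors, rose from 44.8 ± 5.50 to 62.6 ± 5.12 FPKM (SD, n = 3 each), with a log2 fold change of 0.48 (adjusted p = 0.0365 from limma, and 0.0584 after upper-quartile scaling). ITGAV, the integrin subunit of the receptors that release latent TGF-beta, fell from 45.8 ± 6.49 to 26.8 ± 2.77 FPKM (SD, n = 3 each), with a log2 fold change of -0.75 (adjusted p = 0.0125 from limma). FBN1, the microfibril protein to which latent complexes are tethered, fell from 109 ± 14.6 to 66.5 ± 7.23 FPKM (SD, n = 3 each), with a log2 fold change of -0.70 (adjusted p = 0.0163 from limma). ITGB1, the most abundant of the list, had means of 905 and 719 FPKM (log2 fold change -0.33, adjusted p = 0.0638 from limma), and passed the threshold after quantile normalization (0.0278) and upper-quartile scaling (0.0377). The count of altered genes fell to 0 without control library 2 or Ras-induced library 3, with adjusted p-values of FURIN, ITGAV and FBN1 between 0.0536 and 0.0764, and to 1 without Ras-induced library 1. FURIN was over the threshold, at 0.0530 to 0.111, whichever of the 6 libraries was left out.

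TGFBI (ENSG00000120708, chromosome 5 of GRCh37, 135364677 to 135399507, plus strand) measured 741, 999 and 895 FPKM in control and 482, 926 and 364 FPKM in Ras-induced libraries. Ras-induced library 2 lay among the controls, and the other 2 lay under them. The mean was 878 ± 130 in control and 590 ± 296 FPKM in Ras-induced cells (SD, n = 3 each) (log2 fold change -0.68, 95% interval -1.46 to 0.11, adjusted p = 0.205 from limma). Without Ras-induced library 2 the log2 fold change was -1.06 (adjusted p = 0.0342), and without Ras-induced library 3 it was -0.38 (adjusted p = 0.473).

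The 25 genes listed as responding to TGF-beta in fibroblasts and other cells, TGFBI and SMAD7 among them, moved in both directions. Of the 24 tested, 13 were altered, 6 higher and 7 lower, which is 54.2% against 16.7% of all tested genes; the list was drawn up with earlier results of these data known, and their median log2 fold change was -0.04. ACTA2, the smooth-muscle actin that marks myofibroblasts, fell from 83.8 ± 32.4 to 7.91 ± 1.97 FPKM (SD, n = 3 each), with a log2 fold change of -3.20 (adjusted p = 0.0028 from limma). ELN, which encodes elastin, measured 12.2, 38.7 and 5.45 FPKM in control and 0.241, 0.470 and 0.101 FPKM in Ras-induced libraries, with a log2 fold change of -3.57 (adjusted p = 0.0128 from limma). IGFBP3, a binding protein of insulin-like growth factors, fell from 106 ± 11.7 to 22.2 ± 8.78 FPKM (SD, n = 3 each), at an adjusted p of 0.0045 from limma. LOX, COL1A2 and TAGLN also fell, and COL1A1, the highest of the list by its mean over all 6 libraries, stood at 1345 and 550 FPKM with an adjusted p of 0.0501 from limma. COL1A1 passed the threshold after quantile normalization (0.0368), after upper-quartile scaling (0.0437), with a pseudocount of 0.1 (0.0386), with the replicate block (0.0456) and without Ras-induced library 2 (0.0331), and missed it at 0.0658 to 0.162 under the other alternatives.

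Among the 6 response genes that rose, CDKN2B, which encodes the CDK inhibitor p15, rose from 2.31 ± 0.809 to 18.7 ± 4.01 FPKM (SD, n = 3 each), with a log2 fold change of 2.58 (adjusted p = 0.0021 from limma). POSTN, the matrix protein periostin, measured 14.2, 53.4 and 54.5 FPKM in control and 170, 214 and 169 FPKM in Ras-induced libraries (log2 fold change 2.36, adjusted p = 0.0236 from limma). BHLHE40, a transcriptional repressor, rose from 9.43 ± 2.17 to 27.7 ± 7.49 FPKM (SD, n = 3 each), at an adjusted p of 0.0128 from limma. TSC22D1, JUNB and SPHK1 were the other 3, of which SPHK1 (adjusted p = 0.0468 from limma) was not called after upper-quartile scaling (0.0758). Without control library 2 the count of altered response genes was 7 (2 higher and 5 lower), without Ras-induced library 1 it was 6 (2 and 4), and without Ras-induced library 3 it was 7 (2 and 5). ELN lost its call without control library 1 (adjusted p = 0.0566) and without Ras-induced library 1 or 3, with log2 fold changes of -3.47 to -3.67. Its log2 fold change was -2.87 without control library 2 and -5.35 with a pseudocount of 0.1. POSTN lost it without control library 2 (0.0592) and without Ras-induced library 1, 2 or 3 (0.0833 to 0.0865), with log2 fold changes of 2.25 to 2.67, and had one of 1.75 without control library 1 (0.0139). BHLHE40 lost it without control library 1 or 2 and without Ras-induced library 1 or 3, at 0.0534 to 0.0635.

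**Figure D4:**
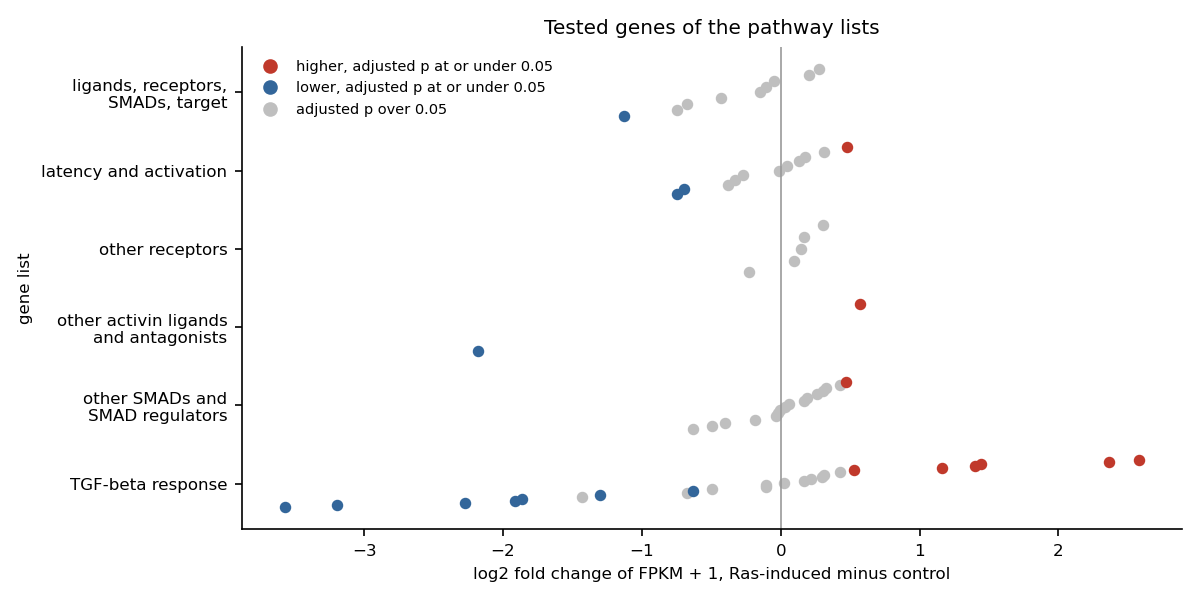
Log2 fold change of FPKM + 1, Ras-induced minus control (horizontal axis), of each tested gene of the 10 ligand, receptor, SMAD and target genes and of the 5 other lists (vertical axis); red and blue mark altered genes that were higher and lower. Response genes reached from -3.57 to 2.58, whereas the tested receptors lay between -0.23 and 0.30.

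Over the 6 libraries, the genes whose log2(FPKM + 1) followed FST most closely were LEPREL1, a collagen prolyl hydroxylase gene (Pearson r = 0.998), SLC7A1, an amino acid transporter gene (0.997), and the pseudogene DHFRP1 (0.991). LEPREL1 measured 62.8, 48.0 and 43.7 FPKM in control and 20.4, 28.5 and 28.4 FPKM in Ras-induced libraries. For INHBA they were AC010890.1 (0.989), RP11-863P13.3 (0.984) and BCAR1, an adhesion adaptor gene (0.981). With 6 points, 427 tested genes exceeded an r of 0.9 with FST and 88 with INHBA, and all of them share libraries, so these values are a description only.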

How the data were processed

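The data are 6 RNA-seq libraries of mitotically arrested ERRAS cells, 3 control and 3 Ras-induced. Per the labels and methods, the authors trimmed reads with Trim Galore 0.3.0, used Tophat2 for alignment to hg19 guided by Ensembl build 73, and calculated FPKM with Cufflinks. The deposited FPKM table names the group and a number from 1 to 3 for each library. Its 18 unnamed columns, which hold extra values of 120 genes, were not used, nor were those genes. The authors also deposited a cuffdiff comparison (FPKM per group, fold changes, test statistics, p-values and q-values), which was not used.

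For genes whose mean reached 1 FPKM, limma 3.58.1 (R 4.3.3) was fitted to log2(FPKM + 1) (two-sided, mean-variance trend, Benjamini-Hochberg adjustment over all 13993 tested genes), after the procedure was tested on simulated data. Tests that need read counts were not applied to FPKM, and fold changes on this scale understate those of low genes. Between deposited and rescaled values the split of altered genes moved, from 1543 higher and 793 lower to 1044 and 1109 after quantile normalization and to 921 and 1101 after upper-quartile scaling. The 10 genes and all lists were chosen with earlier results of these data known. Named from each other list were up to 3 altered genes with the largest rise, up to 3 with the largest fall, and the gene of highest mean FPKM; likeness to FST and INHBA was ranked by Pearson correlation. COL1A2, LOX, TAGLN, TSC22D1, JUNB, SPHK1, ACVR1, SMAD4, INHBB and INHA, and the ratio with FSTL3, were added after the values were seen. Coordinates are from GENCODE 44 lifted to GRCh37, the build of hg19. Ratios and figures were made with Python 3.11.15, pandas 2.3.3 and matplotlib 3.10.9.

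The study states 3 independent repeats of the experiment. Alternatives were a pseudocount of 0.1, a filter at 0.1 FPKM or none, upper-quartile scaling, quantile normalization, a fit with no trend, a replicate block, leaving out each library, a stricter call, and 1 FPKM added before ratios.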

Additional observations from a re-analysis of the deposited data

How the results depend on the processing

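The number of altered genes, 2336 over all tested genes, was 1518 without a filter on low values, 548 with a minimum change of 1 on the log2 scale as well, and 860 to 1872 with 1 library left out. Of the 10 genes, 2 (FST and SMAD3) were altered after quantile normalization and 2 after upper-quartile scaling, and 0 to 2 with 1 library left out. Leaving out 1 library gave 0 to 2 altered genes of latency and activation, 0 to 1 other receptors, 1 to 2 other activin ligands and antagonists, 0 to 1 other SMADs and regulators, and 6 to 13 response genes. The other activin ligands and antagonists came to 1 after quantile normalization, 1 after upper-quartile scaling and 1 without a trend. The other SMADs and regulators came to 0 with a filter of 0.1 FPKM, 0 with no filter and 0 without a trend. With the replicate block they came to 2, TGIF1 higher and TGIF2 lower, and the activin ligands and antagonists to 1. Same-numbered libraries had deviations correlated at -0.0027, 0.0433 and 0.0481 for libraries 1, 2 and 3. Control libraries 2 and 3 correlated best with the Ras-induced library of the same number, and control library 1 with Ras-induced library 2 (0.0311). These values were small and do not settle whether the numbers are pairs. The main fit was unpaired, and the replicate block is given as an alternative. With 1 library left out the log2 fold change changed sign for INHBA (-0.26 to 0.27), SMAD7 (-0.39 to 0.19) and STRAP (-0.058 to 0.056), none of which was called. The cause of these shifts was not tested.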
